A study of Mus musculus with 32 samples.

Results

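Very long protein-coding genes were taken as RefSeq protein-coding genes on the mouse autosomes whose gene body, from annotated start to end, spans at least 500 kb. The rule gave 213 of 20661 autosomal protein-coding genes, with 2 genes of this length left out by name. Apart from these 2 names, the rule uses gene length and no measured value, but it was set with earlier results of these data known. The gene bodies span 501.8 to 2270.5 kb, with a median of 734.8 kb, and cover 177.7 Mb after merging, which is 7.41% of the autosomal span.

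The data are lists of regions enriched for trimethylation of lysine 9 on histone H3 (H3K9me3), mapped by chromatin immunoprecipitation and sequencing. The cells were male germ cells (gonocytes) from testes of Mvh-Venus transgenic mice, whose germ cells fluoresce, sampled at stages E13.5 and E16.5 of embryonic development and at P0 and P3 after birth, where the number is the day. At each stage 1 list came from Morc1 heterozygotes (+/-, het) and 1 from Morc1 knockouts (-/-, KO), so the comparison animals also carry 1 mutant Morc1 allele. The labels give 2 H3K9me3 samples for each of the 8 groups, but each list holds peak positions for the whole group, with no height, score or replicate. There was therefore no replicate error, no test was made between lists, and every difference below is a description of the lists. Read depth is unknown. The lists hold no expression values, so neither the germ cell identity nor the loss of Morc1 could be checked against them.

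H3K9me3 is a mark of heterochromatin and is known for silencing transposable elements and tandem gene families. Morc1 is a germ cell ATPase of the GHKL family, known for its part in the repression of transposons in male germ cells during fetal life. Very long genes owe their length to introns. Many of them encode adhesion molecules, receptors and scaffolds of neurons, and they tend to lie in gene-poor regions.

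H3K9me3 peaks were found in every one of the 213 genes in all 8 lists, yet they occupied a small part of the gene bodies. Summed over the genes, peaks covered 4.09%, 8.80%, 9.17% and 8.53% of the bodies in het from E13.5 to P3, and 4.54%, 7.76%, 10.1% and 9.82% in KO. Here and below, 4 values are in the order of the stages. The 2 E13.5 lists were the lowest, and the P0 KO list was the highest. The median gene went from 2.81% in E13.5 het to 8.70% in P0 KO. A share of 84.1% of all body length was in no list, and 2.33% was in all 8. Of the length that was in any list, 50.6% was called at an embryonic and at a postnatal stage, 35.5% at postnatal stages alone and 13.9% at embryonic stages alone.

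**Figure D1:**
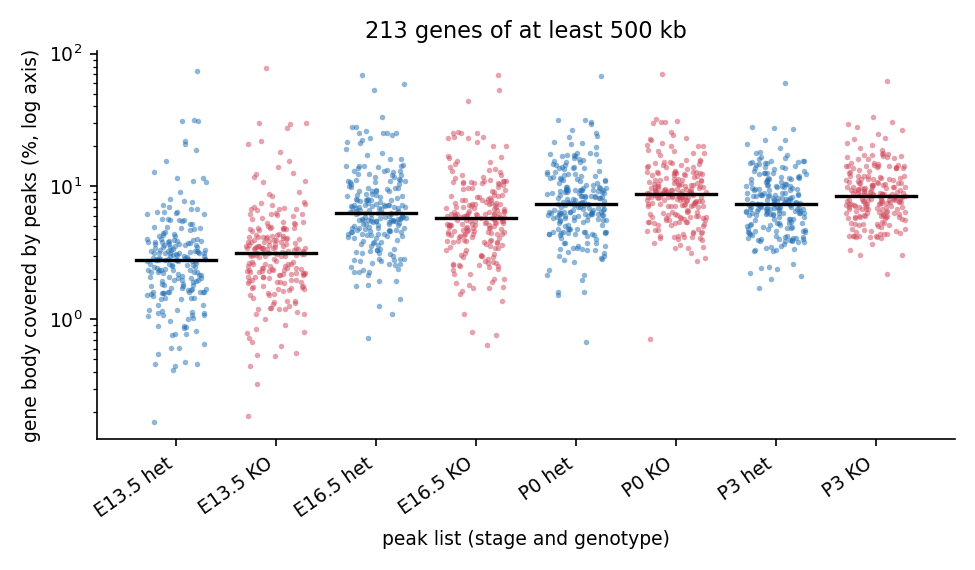
Percent of each gene body covered by H3K9me3 peaks (y axis, log scale) for the 213 genes in each of the 8 peak lists (x axis), with 1 point per gene, het in blue and KO in red, and black bars at the medians. The median bars lie at 2.81% and 3.15% at E13.5 and between 5.75% and 8.70% in the other 6 lists.

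The long genes had a larger covered share than genes under 500 kb as a whole in every list. By class, the exception was E13.5 KO, where genes under 20 kb reached 4.71%. Genes of 100 to 500 kb had a summed covered share of 3.23%, 5.55%, 6.17% and 6.77% in het from E13.5 to P3, and 3.74%, 5.12%, 7.59% and 8.29% in KO. Relative to all genes under 500 kb, the share in long genes was 1.26, 1.76, 1.69 and 1.38 times as large in het from E13.5 to P3 and 1.18, 1.67, 1.51 and 1.32 times in KO. The ratio was thus largest at E16.5 and smallest at E13.5. Intergenic sequence was covered more than the long genes in each list, at 9.03% to 17.9%. The long genes held 4.20% to 5.71% of each list's covered autosomal length, which is below their 7.41% share of the span.

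**Figure D2:**
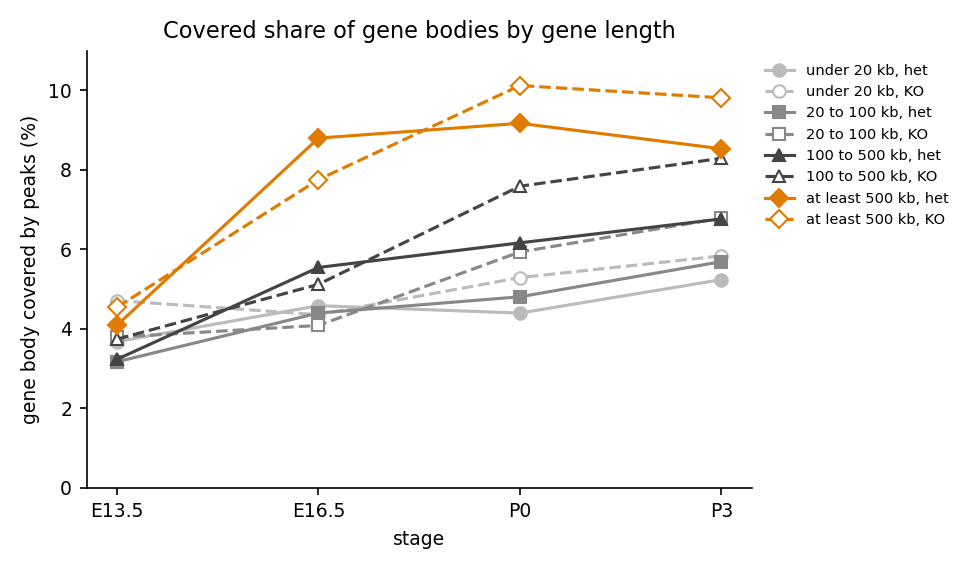
Percent of summed gene body covered by peaks (y axis) at the 4 stages (x axis) for 4 classes of gene length, with filled symbols and solid lines for het and open symbols and dashed lines for KO. The class of at least 500 kb, in orange, reaches 8.80% in E16.5 het and 10.1% in P0 KO, above the 3 shorter classes from E16.5 on.

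The genes differed far more among themselves than the lists did. Skint5 (chr4:113477891-113999503, GRCm38, as are all positions below), a member of a tandem family of immunoglobulin-like genes known from the selection of epidermal T cells, stood apart from all others. The covered share of Skint5 was 73.5%, 69.6%, 67.8% and 60.2% in het from E13.5 to P3, and 77.4%, 69.0%, 70.7% and 62.2% in KO. The gene was thus mostly covered in every list, with its lowest values at P3. Skint genes lie side by side as similar copies, and how the authors placed reads that match several copies is not given in the sources used here. The 5 longest stretches inside a long gene called in all 8 lists were all in Skint5, the first of them 26.7 kb long (chr4:113805792-113832460).

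The next gene by median was Fstl5 (chr3:76074275-76710010), which encodes a secreted follistatin-like protein. The covered share of Fstl5 was 22.1%, 59.0%, 29.7% and 22.4% in het from E13.5 to P3, and 27.5%, 53.3%, 32.3% and 25.0% in KO. Fstl5 was therefore high at E16.5 in both genotypes and close to its E13.5 level again by P3. In windows of 50 kb, part of the E16.5 coverage lay where the gene had few peaks at other stages. In the window chr3:76624275-76674274, peaks covered 31.2 kb in E16.5 het and 11.5 kb in E16.5 KO, against 0 to 5.08 kb in the other 6 lists. Some other windows were well covered at other stages too. In chr3:76274275-76324274, peaks covered 45.9 and 44.3 kb in the E16.5 lists of het and KO, against 8.81 to 27.7 kb in the other 6. In chr3:76474275-76524274 the 8 values lay between 34.0 and 39.4 kb.

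Khdrbs2 (chr1:32172602-32705224), which encodes an RNA-binding protein of alternative splicing, had the same E16.5 maximum. Its covered share was 18.9%, 53.7%, 26.6% and 14.6% in het from E13.5 to P3, and 18.3%, 44.1%, 25.6% and 30.5% in KO. The genotypes lay close together at E13.5 and P0 and far apart at P3, where peaks covered 77.8 kb in het and 162.4 kb in KO. Of its 11 windows of 50 kb, 11 had more in het at E16.5 and 9 had more in KO at P3. The other genes among the 8 highest medians were Iqcm at 27.2%, L3mbtl4 at 25.0%, A830018L16Rik at 24.9%, Csmd1 at 22.8% and Gm38666 at 22.8%. Iqcm and L3mbtl4, the latter a gene of the MBT family of chromatin readers, were lowest at E13.5, with 10.9% and 12.8% in het, and lay at 23.1% or more in all later lists.

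The 8 lowest medians belonged to Magi1 (1.21%), Lrba, Pard3, Nfia, Foxp1, Rabgap1l, Plcb1 and Fat3 (2.16%). Magi1 (chr6:93675453-94283929), a scaffold of cell junctions, had 10.3, 4.41, 4.07 and 12.8 kb in het from E13.5 to P3, and 13.54, 3.91, 4.33 and 13.4 kb in KO. Its order of stages was the opposite of that of most long genes, with the lowest values at E16.5 and P0. Fat3 (chr9:15910189-16502681), a giant atypical cadherin, had 1.00 and 2.61 kb at E13.5 and 17.1 and 24.5 kb at P0.

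The 5 longest genes were not the most covered. Ptprd (chr4:75941237-78211742; 2270.5 kb), a receptor-type tyrosine phosphatase of synapse formation, had 2.94%, 13.1%, 9.19% and 6.20% in het from E13.5 to P3, and 3.44%, 9.51%, 8.72% and 7.01% in KO. Cntnap2, Lsamp, Lrp1b and Macrod2, the other four, lay between 2.19% and 3.66% at E13.5 and between 5.30% and 10.5% in later lists. Across the 213 genes, Spearman's rho between body length and covered percent was between 0.02 and 0.19 over the 8 lists. This is a correlation across genes that share the same lists and is given without a p.

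The values of the genes just inside and just outside the length limit overlapped. Edil3, Dock1 and Samd12, the 3 shortest genes inside it, had 3.27%, 0.855% and 4.82% covered in E13.5 het and 9.08%, 3.46% and 9.46% in P0 het. Dnm3, Lrrc7 and Cacna1e, of 495.9, 494.8 and 494.0 kb, had 1.39%, 1.13% and 2.14% in E13.5 het and 4.93%, 8.20% and 4.32% in P0 het. In both lists the range of the 3 genes outside lay within that of the 3 inside, whose highest values were above it.

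Peaks inside long genes were sparser and less often broad than on the rest of the autosomes. That rest includes the more covered intergenic sequence. The number and length of peaks in shorter genes alone were not counted, so this is not shown to be particular to long genes. The 8 lists held 2601 to 5809 peaks in the long genes, or 14.6 to 32.7 peaks per Mb, against 21.4 to 37.5 per Mb on the rest of the autosomes. Peaks of at least 10 kb made up 2.19% to 3.90% of the peaks in long genes and 4.57% to 6.78% of those elsewhere. The median peak length was 1812 to 2443 bp in long genes.

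The step from E13.5 to E16.5 held the largest difference between consecutive stages. Summed over the long genes, E16.5 had 2.15 times the covered length of E13.5 in het, and the KO value was 1.71 times. All autosomal sequence had 1.83 and 1.48 times as much, so relative to the size of the lists the long genes had 1.17 and 1.16 times as much. In het, 207 of 213 genes had more at E16.5, against 66.5% of all genes with at least 1 covered base in either list and 80.6% of such genes of 100 to 500 kb. A fold of at least 1.5 with at least 5 kb in the higher list was reached by 193 long genes, where the background over all genes tested was 61.6%. In KO, 197 genes had more at E16.5 (background 53.9%), and 158 were past the 1.5-fold limit (background 44.6%). The 2 genotypes gave like orders of the genes, with a Spearman's rho of 0.839 across the 213 genes for this ratio.

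Ranked by the smaller of a gene's 2 genotype ratios, Pcdh9, a protocadherin of neurons, had the largest ratio from E13.5 to E16.5, with little at E13.5 in both genotypes. In Pcdh9 (chr14:93013700-93892834), peaks covered 4.21, 38.1, 54.3 and 36.1 kb in het from E13.5 to P3, and 4.61, 31.4, 47.2 and 37.2 kb in KO. Its ratios were 9.05 in het and 6.81 in KO. Foxp2 (chr6:14901349-15441977), a forkhead transcription factor, was second by this rule but had the highest ratio in KO alone, 16.6, against 5.26 in het. It had 4.19 and 1.00 kb at E13.5 against 22.1 and 16.6 kb at E16.5. Galnt13, Ctnna2 and Sgcz followed, with smaller genotype ratios of 4.29, 4.22 and 3.95. These encode a glycosyltransferase, an alpha-catenin of neurons and a sarcoglycan.

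Few long genes had less at E16.5. Among genes with at least 5 kb in both E16.5 lists, the smallest ratios were 0.505 for Alk, in KO, 0.727 for Npas3, 0.752 for Elmo1, 0.780 for Mast4 and 0.805 for Gm37013. Each was the smaller of the gene's 2 genotype ratios. In Alk, Npas3 and Mast4 the het ratio was above 1, so the direction differed between genotypes there.

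From E16.5 to P0 the genotypes parted. The covered length of long genes was 1.04 times as large at P0 in het and 1.31 times in KO, and 156 and 200 of the 213 genes had more at P0 (backgrounds 53.6% and 73.1%). The lists as a whole parted likewise, with autosomal ratios of 1.06 in het and 1.21 in KO. Relative to these, the long genes had 0.987 times as much at P0 in het and 1.08 times in KO, so the direction in het turns with the scaling. In KO, 101 of them were past 1.5-fold at this step (background 49.9%). From P0 to P3 the long genes had slightly less, with ratios of 0.930 in het and 0.969 in KO, while genes of 100 to 500 kb had ratios of 1.10 and 1.09. All autosomal sequence fell further, to 0.8998 and 0.9375 times its P0 length, so the long genes were 1.03 times as high at P3 in both genotypes once scaled to list size, and their direction turns. Less at P3 than at P0 was found in 132 long genes in het (background 35.7%) and 116 in KO (background 37.8%). A lower value at P3 in both genotypes was found in 101 of 213, against 18.1% of all genes with coverage in any list and 22.9% of such genes of 100 to 500 kb. These counts of genes are not scaled to list size.

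Falls from P0 to P3 were ranked by the larger of a gene's 2 genotype ratios, so that both had to be low. Grik2 (chr10:49093680-49790161), a kainate receptor subunit, had 86.9 and 83.1 kb in the P0 lists of het and KO and 47.6 and 54.9 kb in those of P3. The larger of its 2 ratios was 0.661, in KO. Sntg1, Nlgn1, Grm5 and Nrg3 followed, with larger ratios of 0.750 to 0.763. They encode a syntrophin, a postsynaptic adhesion protein, a metabotropic glutamate receptor and a neuregulin. Single genotypes gave another order. In het Grik2 and Khdrbs2 were lowest, both at 0.548, followed by Galntl6 at 0.646, and in KO Cadm2 was lowest, at 0.658.

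Most long genes had their maximum after birth. The highest covered share was at P0 in both genotypes in 79 of 213 genes, or 37.1% (background 10.0%, and 14.5% of genes of 100 to 500 kb with coverage). It was at P3 in both in 60, or 28.2% (background 28.1%, and 42.4% of that class). The P0 share was thus above both, while the P3 share was near the background and below that class. The maximum was at E16.5 in both in 9 genes (background 5.67%), which were Khdrbs2, Dpp10, Naaladl2, Fstl5, Ptprd, Galntl6, Mgat4c, Nrg3 and Cdh12. The 4 genes with the maximum at E13.5 in both (background 8.15%) were Skint5 and 3 overlapping models on chromosome 18, Gm37013, Gm38666 and Gm38667, which span the clustered protocadherin genes. Gm38666 (chr18:36967631-37841873) had 31.4%, 25.3%, 17.9% and 15.5% in het from E13.5 to P3, and 30.1%, 25.3%, 20.3% and 16.47% in KO. Its shares were lower at each later stage in both genotypes, and the other two models share nearly all of its bases.

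**Figure D3:**
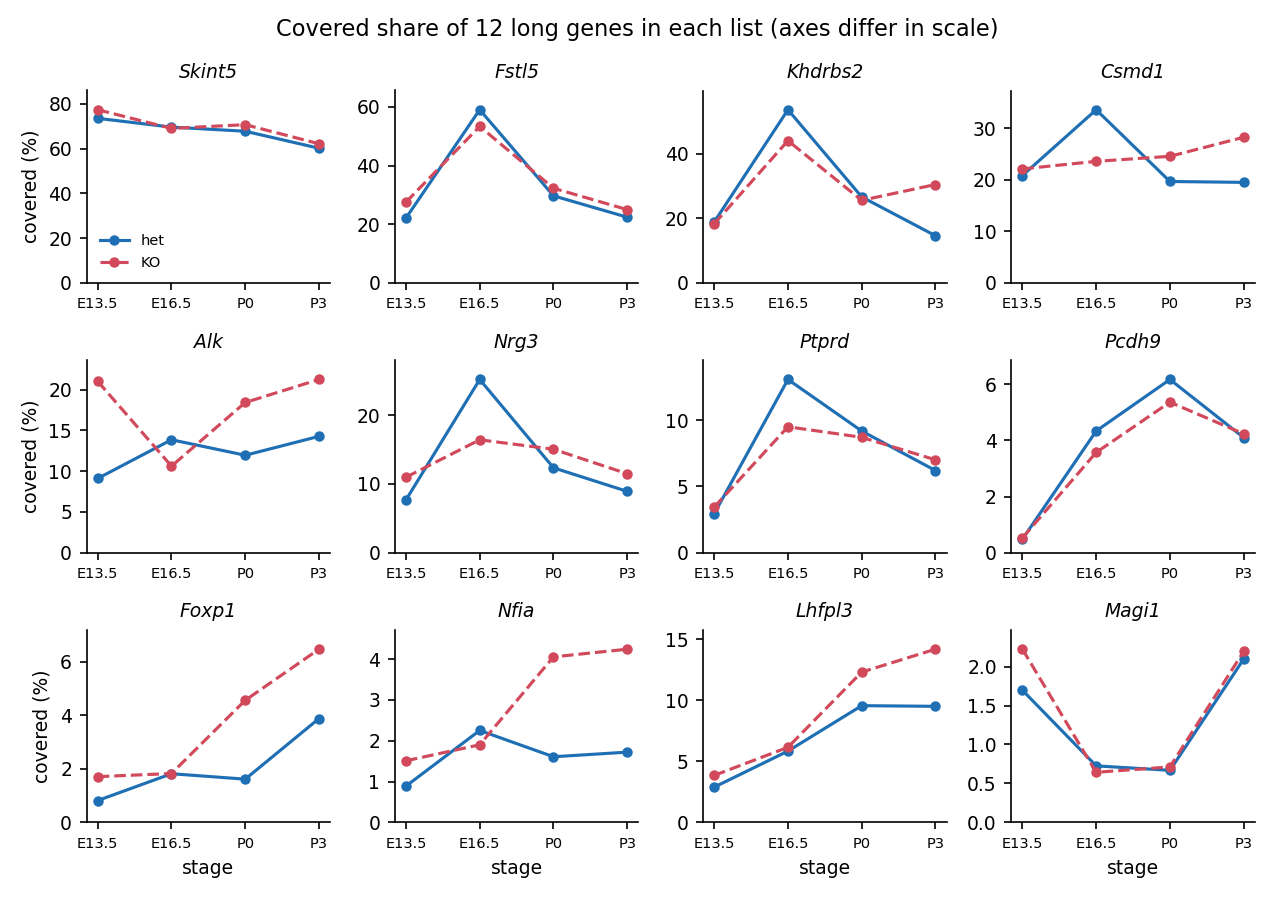
Percent of the gene body covered by peaks (y axis, a separate scale for each gene) at the 4 stages (x axis) in het (blue, solid) and KO (red, dashed) for 12 long genes, with 1 point per list and no replicate error. Fstl5 and Khdrbs2 peak at E16.5 with 59.0% and 53.7% in het, while Foxp1 and Nfia have more in KO than in het at P0 and P3.

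The comparison of KO with het addresses what loss of Morc1 does to H3K9me3 over these genes. KO covered more than het in the long genes at E13.5, P0 and P3 and less at E16.5. From E13.5 to P3, the KO to het ratio of summed covered length was 1.11, 0.881, 1.10 and 1.15. The same ratios over all autosomal sequence were 1.14, 0.918, 1.05 and 1.09, so the size of the whole list moved in the same directions. Set against those values, the long genes were lower in KO at E13.5 and E16.5 and higher at P0 and P3, with scaled ratios of 0.976, 0.960, 1.05 and 1.05, so the direction at E13.5 turns when lists are scaled to their autosomal length. Its part in the gene values was not tested. In genes of 100 to 500 kb the ratios were 1.16, 0.923, 1.23 and 1.23.

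Gene by gene, the order of the genotypes was shared by most long genes. KO was above het in 163 of 213 genes at E13.5 (background 66.1%), 156 at P0 (background 75.5%) and 173 at P3 (background 67.7%). At E16.5 het was above KO in 194 genes (background 60.5%). The share of long genes with more in KO was therefore above the background at E13.5 and P3 and slightly below it at P0. Among genes of 100 to 500 kb with coverage, KO was above het in 72.0% at E13.5, 84.9% at P0 and 79.9% at P3, and het above KO in 68.5% at E16.5. Beside that class, the 76.5% and 81.2% of long genes at E13.5 and P3 were close, the 73.2% at P0 was lower, and het was higher in more of the long genes at E16.5. The 4-stage pattern with KO above het at E13.5, P0 and P3 and below it at E16.5 was shown by 106 genes, or 49.8% (background 13.2%), against 33.1% of genes of 100 to 500 kb. In the background over all genes, short genes often had no peak at all, as did 85.8% of genes under 20 kb in E13.5 het.

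Most of these differences were small. At least 1.5-fold more in KO, with at least 5 kb in the higher list, was found in 16 of 203 long genes tested at E13.5 (background 17.6%), 28 of 212 at P0 (background 26.7%) and 23 of 213 at P3 (background 23.2%). At least 1.5-fold more in het was found in 0 genes at E13.5 (background 2.10%). At E16.5 it was found in 5 genes (background 4.46%), which were Rabgap1l, Dock1, Kirrel3, Car10 and Nrg3. At P0 it was found in Unc5d alone (background 4.33%), a netrin receptor, and at P3 in Zfhx3 alone (background 3.76%), a homeodomain transcription factor. In each of these 3 counts for KO, long genes passed the fold less often than all genes did. The lowest KO to het ratio at E13.5 was 0.239 in Foxp2, which was below the minimum of 5 kb in both lists and is not among these counts.

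**Figure D4:**
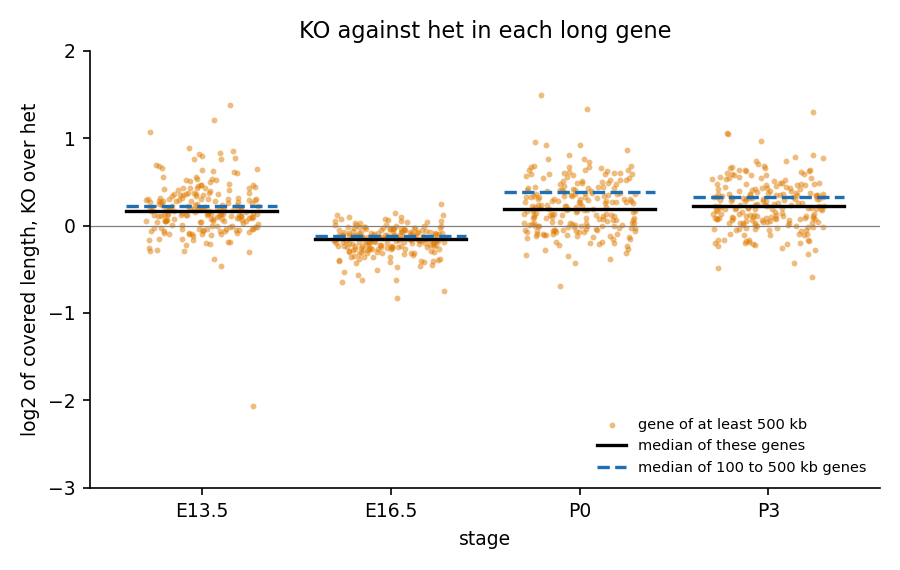
Log2 of the KO to het ratio of covered length (y axis) in each of the 213 long genes (orange points) at the 4 stages (x axis), with the median of the long genes as a black bar and the median of genes of 100 to 500 kb with at least 5 kb in either list as a blue dashed bar. Most points lie above 0 at E13.5, P0 and P3 and below 0 at E16.5, where 194 of 213 genes have more in het.

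The genes past 1.5-fold in KO at both P0 and P3 were Ank2, Esrrg, Foxp1, Lrba, Mecom, Nfia, Plcb1, Ptprg and Tenm2. These 9 genes are 32.1% of the P0 genes and 39.1% of the P3 genes. The overlap was counted in long genes alone, so no background stands beside it. Nfia (chr4:97578066-98118876), a transcription factor of the nuclear factor I family, had 4.80, 12.2, 8.70 and 9.31 kb in het from E13.5 to P3, and 8.16, 10.3, 21.9 and 23.0 kb in KO. Its 2 postnatal KO lists lay above the 6 other lists. Foxp1 (chr6:98925342-99522746), a forkhead transcription factor, had 4.86, 10.8, 9.63 and 23.2 kb in het from E13.5 to P3, and 10.2, 10.9, 27.2 and 38.6 kb in KO. The KO to het ratio of Foxp1 was 2.83 at P0, which was the highest of all long genes at that stage, and 1.67 at P3. Tenm2, a teneurin of synaptic adhesion, had 33.0 and 51.4 kb in the P0 lists of het and KO and 27.5 and 57.1 kb in those of P3. Esrrg, an orphan nuclear receptor, had 16.9 and 32.9 kb in the P0 lists of het and KO and 15.0 and 29.2 kb in those of P3.

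Alk, a receptor tyrosine kinase of the nervous system (chr17:71868988-72604702), had more in KO at 3 stages. In Alk, peaks covered 66.9, 101.8, 87.8 and 104.9 kb in het from E13.5 to P3, and 154.6, 78.0, 135.5 and 156.2 kb in KO. KO was higher at E13.5, P0 and P3, with ratios of 2.31, 1.54 and 1.49, and lower at E16.5, with a ratio of 0.766. The E13.5 difference lay in the part of the gene with the higher coordinates, which holds its 5′ end. In the window chr17:72468988-72518987 the covered length was 5.11 kb in E13.5 het and 29.5 kb in E13.5 KO.

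Csmd1 (chr8:15892538-17535385), a very large membrane protein with complement-control domains, had the largest covered length of all long genes in 5 of the 8 lists. Peaks covered 341.7, 551.1, 322.8 and 320.0 kb in het from E13.5 to P3, and 362.8, 386.8, 402.9 and 463.5 kb in KO. Het was higher at E16.5, and KO was higher at the other 3 stages. Of its 33 windows of 50 kb, 32 had more in het at E16.5, 24 had more in KO at P0 and 28 had more in KO at P3. At E13.5 the windows were split, with 14 higher in KO and 15 in het. The E16.5 differences were uneven in size, with 12.7 kb in het and 12.5 kb in KO in the window chr8:16092538-16142537 and 18.6 and 4.03 kb in chr8:17092538-17142537. In the window chr8:16592538-16642537, the P3 lists had 0 kb in het and 14.3 kb in KO. Nrg3, a neuregulin, had the same turn, with 84.9, 279.1, 136.7 and 98.7 kb in het from E13.5 to P3, and 121.5, 181.9, 166.6 and 127.1 kb in KO.

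**Figure D5:**
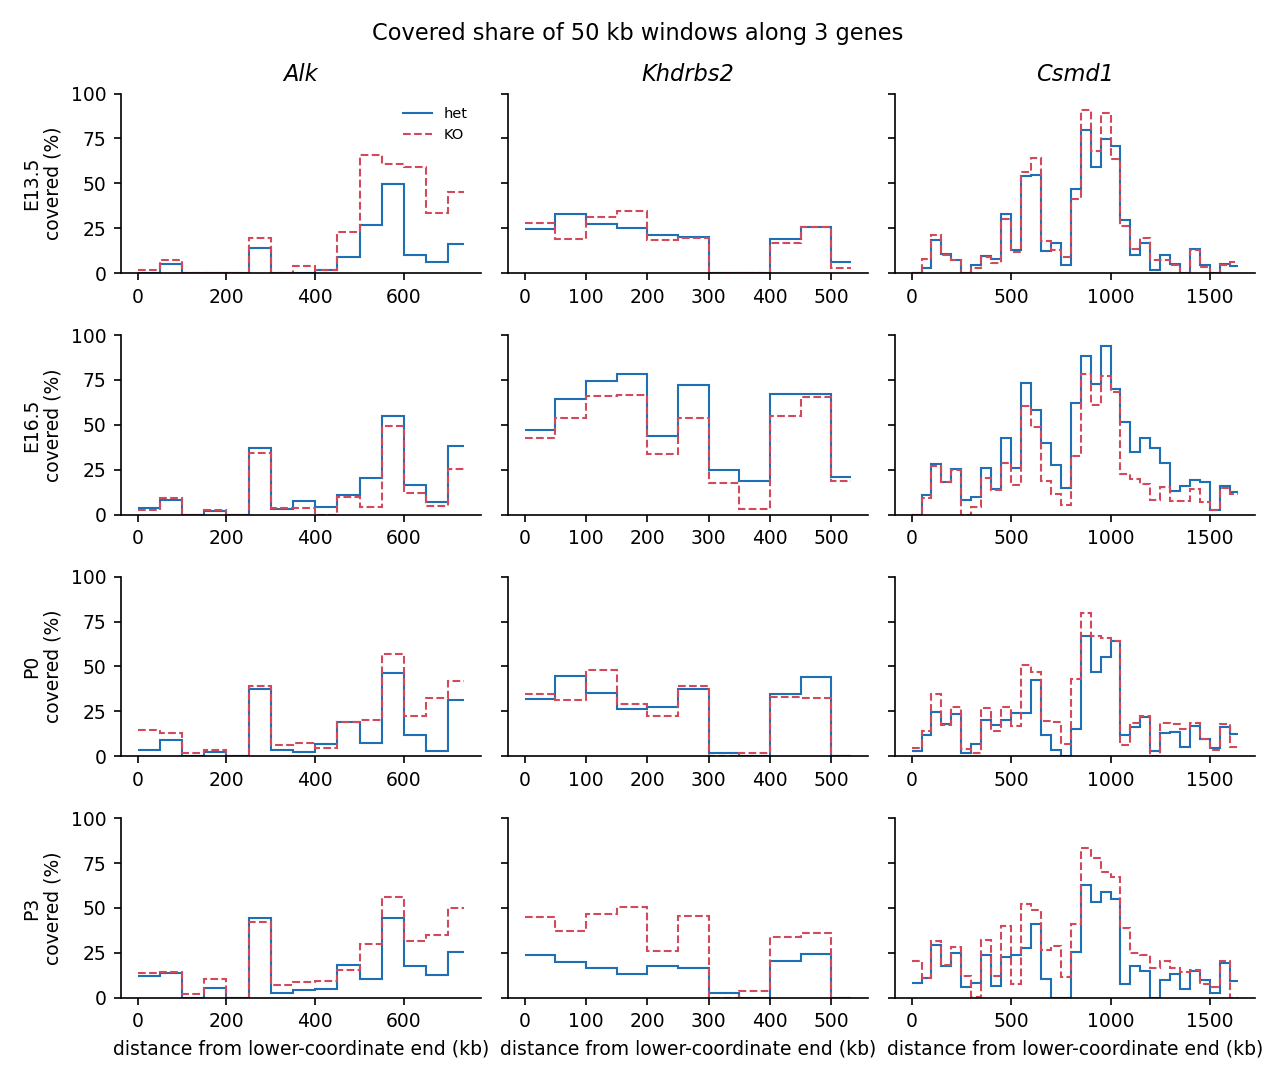
Percent covered by peaks (y axis) in windows of 50 kb along Alk, Khdrbs2 and Csmd1 (x axis, distance from the end of the gene with the lower coordinate, in kb), with 1 row of panels for each stage, het in blue and KO in red dashes. In Alk the KO line is above the het line in the last 6 windows at E13.5, and in Khdrbs2 the KO line is above the het line in 9 of 11 windows at P3.

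Few genes kept 1 order of the genotypes at all 4 stages. KO was higher throughout in 7 of 213 genes (background 5.43%, and 12.0% of genes of 100 to 500 kb), which were Rims1, Erbb4, Cdk14, Lhfpl3, Foxp1, Sox6 and Trpm3. Lhfpl3 (chr5:22746054-23275597) had 15.3, 30.9, 50.6 and 50.3 kb in het from E13.5 to P3, and 20.4, 32.6, 65.2 and 75.1 kb in KO. Het was higher throughout in 5 genes, or 2.35% (background 1.12%, and 1.79% of genes of 100 to 500 kb), which were Adgrb3, Spag16, Kcnd2, Galntl6 and Marchf1. Kcnd2 (chr6:21215346-21729805), a voltage-gated potassium channel, had 8.31, 17.5, 26.5 and 21.0 kb in het from E13.5 to P3, and 6.80, 16.2, 23.1 and 15.6 kb in KO. In the other named genes of both groups the smallest of the 4 stage ratios was 1.00 to 1.04, so at least 1 stage showed almost equal lengths.

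The peaks of the 2 genotypes lay largely at the same places. From E13.5 to P3, the Jaccard index over the long genes, which is shared length over the length in either list, was 0.665, 0.751, 0.673 and 0.625. Between consecutive stages of the same genotype it was 0.378, 0.536 and 0.643 in het and 0.436, 0.542 and 0.641 in KO. The index is held down where the lists differ in length, as from E13.5 to E16.5. Of the E13.5 length, 86.4% in het and 82.2% in KO lay inside the longer E16.5 list of the same genotype. By this index the genotypes at P3 overlapped slightly less than P0 and P3 did within a genotype. By share of a list the order was mixed. Of the P3 het length, 82.7% lay in P3 KO and 81.2% in P0 het. Of the P3 KO length, 71.9% lay in P3 het and 79.3% in P0 KO. At P3 KO alone held 4.97 Mb and het alone 2.66 Mb, and at E16.5 the lengths were 1.18 Mb and 3.05 Mb. Length called in 1 genotype at both P0 and P3, and in the other genotype at neither, was 1.15 Mb for KO and 1.14 Mb for het. It fell into 2875 runs with a median of 207 bp in KO and 1129 runs with a median of 366 bp in het. The total was thus almost equal, in many short runs for KO and in fewer, longer runs for het. Of runs of at least 3 kb there were 95 in 62 genes for het, of 380.7 kb in all, and 11 in 9 genes for KO, of 43.2 kb. The longest het run was 9.12 kb in Spag16 (chr1:69931517-69940636), a gene of the sperm axoneme. The longest KO run was 7.06 kb in Csmd1 (chr8:16631150-16638212). Runs were counted in long genes alone, so whether other sequence shows the same difference between genotypes was not tested.

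After birth, the KO to het ratio was higher in long genes with less H3K9me3. Ordered by mean covered percent, the 54 long genes with the least had a median ratio of 1.26 at P0 and 1.29 at P3, and the 53 with the most had 1.02 and 1.08. The 53 genes next to the lowest group had 1.20 and 1.17, and the 53 after those had 1.09 and 1.12. At E13.5 the medians from the least to the most covered group were 1.21, 1.14, 1.13 and 1.09. At E16.5 they were 0.880, 0.910, 0.904 and 0.898, with the lowest ratio in the least covered group. Since the mean holds the same KO and het lists, the postnatal ratios were also set against the embryonic het lists. Spearman's rho between percent covered in E16.5 het and the KO to het ratio was -0.398 at P0 and -0.320 at P3 across 213 genes. With percent covered in E13.5 het it was -0.206 and -0.187. This is a description across genes that share the lists.

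Genes were also grouped by their known roles, with 6 lists of which a gene can be in more than 1. The largest holds 46 genes of cell adhesion and axon guidance, with a median of 6.24% over genes and lists, against 6.52% for all 213 genes. Csmd1, Cntnap5c, Galnt13 and Gpc5 were its most covered genes, and Nrxn3, Tenm2, Ptprk and Kirrel3 its least. KO was above het in 31 of 46 at P0 and 36 at P3, or 67.4% and 78.3%. In each list these shares stand beside 75.5% and 67.7% of all genes with coverage and 73.2% and 81.2% of the 213 long genes. The counts past 1.5-fold stand beside 26.7% of all genes tested at P0 and 23.2% at P3. Past 1.5-fold at P0 were Kirrel3, Ntm, Ptprg and Tenm2, and at P3 Dcc, Opcml, Ptprg, Ptprm, Tenm2 and Thsd7b, which are 8.70% and 13.04% of the list. All 46 had more at E16.5 than at E13.5 in both genotypes, a state found in 197 of the 213 genes (background 35.4% of all genes with coverage, and 61.8% of those of 100 to 500 kb).

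The 6 cadherin genes had a median of 9.69%. Cdh18 (chr15:22548898-23477491), a classical cadherin of neurons, had 6.16%, 21.1%, 15.4% and 12.0% in het from E13.5 to P3, and 6.86%, 15.2%, 15.8% and 11.9% in KO. Het and KO differed at E16.5 in Cdh18 and lay within 1 percentage point of each other at the other stages. KO was above het in 3 of 6 cadherins at P0 and 4 at P3, and their median KO to het ratio at P0 was 0.960, against 1.14 for all 213 genes. No cadherin was past the 1.5-fold limit at P0 or P3. The 20 receptor and channel genes had a median of 6.80%, led by Gabrg3, a GABA receptor subunit, and Dpp10, a regulator of potassium channels. KO was higher in 15 of 20 at P0 and 15 at P3, close to the background at P0, with Kcnma1 and Ryr3 past the limit at P0 and Dpp10 and Ryr2 at P3.

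The 43 genes of scaffolds and signalling had a median of 5.22%, with Khdrbs2 at 26.1% and Magi1 at 1.21% as the ends. KO was higher in 33 of 43 at P0 and 40 at P3, or 76.7% and 93.0%. Past 1.5-fold were Alk, Ank2, Dock2, Nav2, Pard3, Pde4b and Plcb1 at P0 and Ank2, Dab1, Frmd4a, Khdrbs2, Plcb1, Rims1 and Syt1 at P3. The 22 genes known at common fragile sites, which are stretches prone to breaks under replication stress, had a median of 7.73%. KO was higher in 17 of 22 at P0 and 18 at P3, or 77.3% and 81.8%, near the shares over the 213 genes. Wwox, a tumour suppressor at a fragile site, was the 1 gene of this list past the limit at P0, with 40.2 kb in het and 64.3 kb in KO. Fhit, another such gene, had 224.6 and 255.2 kb at P0.

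The 20 genes of transcription and gene regulation had the lowest median of the lists, at 4.17%, and the highest median KO to het ratio at P0, at 1.36. KO was above het in 19 of 20 at P0, with Zfp804b as the exception, and in 18 at P3, with Zfhx3 and Hdac9 as the exceptions. Past 1.5-fold at P0 were 8 genes, Camta1, Esrrg, Foxp1, Mecom, Nfia, Npas3, Rbms3 and Sox5, and at P3 4 genes, Esrrg, Foxp1, Mecom and Nfia. Beside the backgrounds of 26.7% and 23.2%, these counts were above at P0 and below at P3. Mecom, a zinc-finger transcription factor of blood stem cells, had 20.8 and 33.1 kb in the P0 lists of het and KO and 21.2 and 34.0 kb in those of P3. Sox5 had 53.4 and 90.6 kb in the P0 lists of het and KO and 83.2 and 106.4 kb in those of P3. As given above, less covered long genes had higher ratios at P0 and P3, and the part of this in the value of the list was not tested.

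Long genes were covered less than the DNA around them. With 500 kb on each side as the flanks, the gene body was below the flanks in 167, 162, 171 and 167 of 213 genes in het from E13.5 to P3 (backgrounds over all genes 82.0%, 82.8%, 83.6% and 80.3%). In KO it was below them in 170, 168, 162 and 162 genes (backgrounds 80.5%, 83.0%, 81.1% and 79.2%). These shares of long genes were close to the background, and slightly above those of genes of 100 to 500 kb, at 70.5% to 77.5%. The median body and flank were 2.81% and 4.95% in E13.5 het and 7.42% and 12.3% in P0 het. A body below its flanks in all 8 lists was found in 140 long genes, or 65.7% (background 61.4%). The largest gap was in Cdh18, with a median of 13.6% in the body and 47.5% in the flanks. A body above its flanks in all 8 lists was found in 25 long genes, or 11.7% (background 6.69%, and 10.4% of genes of 100 to 500 kb), among them Skint5, L3mbtl4, Csmd1, Iqcm, Gabrg3, Hpse2, Alk and Fstl5. Csmd1 had 20.8% in the body and 5.41% in the flanks in E13.5 het and 28.2% and 14.4% in P3 KO.

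Annotated start sites of long genes were seldom inside peaks. RefSeq promoter windows of 300 bases, from 250 before to 50 after a start, were available on GRCm38.p6 for 167 of the 213 genes, with 269 windows. At least 150 bases were covered in 4 or more lists in 6 windows, or 2.23%, against 3.89% of all 20084 windows. No list covered 254 of the 269, or 94.4%, against 90.3% of all windows. The windows of Dlg2, Grip1, Skint5 and Syne1 were fully covered in all 8 lists. The Skint5 window is at the 5′ end of the gene (chr4:113999454-113999753, minus strand), inside a peak of 15.9 to 16.4 kb. The Dlg2 window (chr7:92234720-92235019, plus strand) lies at 89.1% of the way from the 5′ end of the gene, and those of Grip1 (chr10:119819139-119819438, plus) and Syne1 (chr10:5069014-5069313, minus) at 57.7% and 90.8%. These 3 are starts of inner, shorter transcripts of a synaptic scaffold, a receptor-interacting scaffold and a nuclear envelope protein. The reference sequences of the 4 windows are shown because they are the starts of long genes that stayed marked in all lists, with each CG dinucleotide, the site of DNA methylation, in capitals.
Dlg2: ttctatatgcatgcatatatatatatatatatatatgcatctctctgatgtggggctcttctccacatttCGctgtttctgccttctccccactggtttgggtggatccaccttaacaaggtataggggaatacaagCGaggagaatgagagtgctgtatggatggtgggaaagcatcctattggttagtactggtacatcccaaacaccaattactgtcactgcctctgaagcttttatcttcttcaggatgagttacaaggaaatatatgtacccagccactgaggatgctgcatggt
Grip1: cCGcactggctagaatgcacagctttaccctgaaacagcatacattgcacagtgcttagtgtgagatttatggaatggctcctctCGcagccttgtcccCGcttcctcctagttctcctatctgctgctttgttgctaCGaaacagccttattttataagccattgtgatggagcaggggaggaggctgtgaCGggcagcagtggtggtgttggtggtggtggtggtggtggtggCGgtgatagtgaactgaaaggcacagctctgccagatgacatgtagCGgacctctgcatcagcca
Skint5: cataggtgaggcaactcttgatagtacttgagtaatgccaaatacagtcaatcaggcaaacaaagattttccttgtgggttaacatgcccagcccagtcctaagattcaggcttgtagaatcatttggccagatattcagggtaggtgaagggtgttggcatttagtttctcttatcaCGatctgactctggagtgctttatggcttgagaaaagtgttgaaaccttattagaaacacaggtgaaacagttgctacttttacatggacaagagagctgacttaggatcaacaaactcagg
Syne1: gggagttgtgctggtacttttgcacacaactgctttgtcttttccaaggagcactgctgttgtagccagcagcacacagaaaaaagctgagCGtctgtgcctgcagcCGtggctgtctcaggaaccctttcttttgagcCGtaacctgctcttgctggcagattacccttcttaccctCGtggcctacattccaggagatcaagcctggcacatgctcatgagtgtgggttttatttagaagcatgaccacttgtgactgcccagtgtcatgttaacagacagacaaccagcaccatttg

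These 4 windows hold fewer CG dinucleotides than the median window. The counts were 2 for Dlg2, 7 for Grip1, 1 for Skint5 and 4 for Syne1, against a median of 12 for the windows of long genes and 14 for all windows. A count at least as high was found in 95.6% of all windows for Skint5, 89.0% for Dlg2, 76.9% for Syne1 and 65.2% for Grip1. The search was for the letters CG in each window, which is the same on both strands, and a count is no measure of methylation.

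Another 4 windows were covered at E13.5 in both genotypes and in no later list, in Lrmda, Pde1c, Sorcs3 and Stpg2. The share of all windows in this state was not counted. Those of Sorcs3, a sorting receptor of neurons (chr19:48205775-48206074, plus), Stpg2 (chr3:139205643-139205942, plus) and Lrmda are at the 5′ ends of their genes. That of Pde1c lies at 48.5% of the way from the 5′ end. The Sorcs3 and Stpg2 windows are shown as the contrast to the windows marked throughout. The Stpg2 window is rich in CG, with 32 dinucleotides and 67.3% G and C, a CG count reached by 13.1% of all windows. The Sorcs3 window has 9, below the median of 12 for windows of long genes, and those of Lrmda and Pde1c have 21 and 11.
Sorcs3: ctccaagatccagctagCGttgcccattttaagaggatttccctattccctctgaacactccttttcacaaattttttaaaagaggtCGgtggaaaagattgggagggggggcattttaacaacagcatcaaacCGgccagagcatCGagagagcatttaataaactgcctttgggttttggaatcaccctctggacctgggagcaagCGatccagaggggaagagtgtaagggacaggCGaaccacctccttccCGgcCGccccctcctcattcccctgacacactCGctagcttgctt
Stpg2: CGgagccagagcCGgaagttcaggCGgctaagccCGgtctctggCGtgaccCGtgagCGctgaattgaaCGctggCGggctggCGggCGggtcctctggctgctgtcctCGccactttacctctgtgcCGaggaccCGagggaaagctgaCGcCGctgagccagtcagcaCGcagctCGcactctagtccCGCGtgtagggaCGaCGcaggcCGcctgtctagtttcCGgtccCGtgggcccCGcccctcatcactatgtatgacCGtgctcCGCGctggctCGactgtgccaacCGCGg

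Schip1 and Thsd4 had a window covered in 5 lists. The Thsd4 window was at 0 bases in both E13.5 lists, at 20 in E16.5 het and fully covered in the other 5. The Hdac9 window was covered in both P3 lists and in no other.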

How the data were processed

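The study mapped H3K9me3 in 16 samples (8 groups of 2) and histone H3 in another 16 of the 32 samples. The H3 samples entered no comparison. Per the submitters' processing notes, the build was mm10 (GRCm38) and the tools included bcl2fastq 2.20, cutadapt 1.18, Bowtie2 2.3.4.1, deepTools 3.5.0 and HOMER 4.10, with no role stated. The authors deposited 8 peak lists of chromosome, start and end in bp. The peak caller, its threshold, the control, the joining of replicates and the depth are not given in the sources used here.

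Here, overlapping peaks were merged within a list, and covered base pairs were counted in RefSeq gene bodies (GRCm38.p6) on 19 autosomes. A ratio is a quotient of covered lengths. A gene was counted past 1.5-fold when the higher list covered at least 5 kb. A background is the share of all autosomal protein-coding genes that meet the same criterion, among those eligible for it. Flanks of 500 kb, windows of 50 kb and promoter windows of 300 bases were counted likewise. With 1 list per group there was no test. Python 3.11.15, numpy 2.4.6 and pandas 2.3.3 were used, and the counting was tested on simulated peaks.

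The members and the gene lists were chosen with earlier results of these data known. Genes were named by rule: the 8 highest and 8 lowest medians, the 5 longest, up to 6 per direction with the same order of genotypes at all stages, the 5 largest and 5 smallest E16.5 to E13.5 ratios, the 5 largest falls from P0 to P3, those next to the length limit, those with a start-site window covered in at least 4 lists, and the longest stretch in all 8 lists. The list members past the fold, genes with other maxima, the 4 windows covered at E13.5 and that of Hdac9, and Cadm2, Cdh18, Mecom, Sox5, Esrrg, Tenm2 and Fhit were chosen after their values were seen. Alternatives covered the peaks used, the length limit, overlapping genes, the fold, the minimum length and scaling between lists. Gene symbols were matched to promoter windows by symbol.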

Additional observations from a re-analysis of the deposited data

Results flagged for a closer look

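The KO to het ratio of covered length in long genes was 0.881 at E16.5 and above 1 at the other 3 stages, with 1.11 at E13.5, 1.10 at P0 and 1.15 at P3. Scaled to the autosomal covered length it was below 1 at E13.5 too, at 0.976. It was singled out because the direction at E16.5 was opposite to that at the other stages. The difference between stages was not tested, since each stage has 1 list per genotype. The covered length of all autosomes was 0.918 times as large in KO at E16.5, and the part of list size in the ratio was not tested.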

How the results depend on the processing

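Of 156 values recomputed under another setting, 96 stayed close to the reported value, 55 moved and 5 reversed. A count was close when within 1.5-fold of the reported count. A ratio was close when inside a binomial interval based on the number of peaks, and reversed when on the other side of 1. That interval takes neighbouring peaks as independent, so it is only a yardstick and no replicate error. The directions of the KO to het ratios at the 4 stages held under the 4 planned settings. Scaling the ratios to the autosomal covered length was chosen after seeing the data. It reversed the E13.5 KO to het ratio, at 0.976, the P0 to E16.5 ratio in het, at 0.987, and both P3 to P0 ratios, at 1.03 in het and 1.03 in KO. The scaled KO to het ratios were 0.960, 1.05 and 1.05 at E16.5, P0 and P3, the E16.5 to E13.5 ratios 1.17 in het and 1.16 in KO, and the P0 to E16.5 ratio in KO 1.08. The other reversed value was the P0 to E16.5 ratio in het, 0.988 in the 54 genes of at least 1000 kb. In those genes the E16.5 to E13.5 ratio was 2.48 in het and 1.89 in KO, the P3 to P0 ratio in het was 0.893, and the share relative to genes under 500 kb was 1.15 and 1.08 at E13.5, 1.87 in E16.5 het, and 1.33 and 1.28 at P3. Their counts past 1.5-fold with more in KO were 4 at E13.5, 3 at P0 and 5 at P3, those with more in het were 1 at E16.5 and 0 at either postnatal stage, and 1 gene had more in KO and 1 more in het at all 4 stages, all out of fewer genes. With the longest peaks in equal number, the E16.5 to E13.5 ratio was 1.88 in het and 1.58 in KO, the P0 to E16.5 ratio in KO was 1.21, 2 genes were past the fold with more in het at E13.5, and 14 genes had more in KO and 8 more in het at all stages. Without bases shared between gene bodies, the E16.5 to E13.5 ratio was 2.32 in het and 1.80 in KO, and the share relative to genes under 500 kb was 1.18 and 1.11 at E13.5. At 2-fold, 2, 2 and 3 genes had more in KO at E13.5, P0 and P3, and 0 had more in het at E16.5, P0 and P3. At a fold limit midway between 1 and 1.5, 51, 76 and 80 genes passed with more in KO at E13.5, P0 and P3. At that same limit, 1, 29, 5 and 4 genes passed with more in het at the 4 stages in order. Scaled to the autosomal covered length, 5, 16 and 9 had more in KO at E13.5, P0 and P3, 2 had more in het at E16.5 and 2 at P3, and 23 genes had more in KO and 23 more in het at all 4 stages, so these counts follow the scaling. With a minimum of 20 kb, 6 had more in KO at E13.5 and 1 more in het at E16.5. With peaks above the commonest length, 2 had more in het at P3. Where no construction shows it, the cause was not tested. No paired analysis was possible because each list joins the samples of its group and carries no replicate number, so no replicate could be left out either. Read depth, which is unknown, can set how much of a gene is called.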

Other observations

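Several long genes held long stretches in no list. The longest was 260.3 kb in Lingo2 (chr4:36327617-36587868), which encodes a neuronal membrane protein with leucine-rich repeats, and the next was 212.2 kb in Nrxn3, a presynaptic neurexin. In Kcnd2 1 such stretch of 190.7 kb made up 37.1% of the gene. In Dlg2, a synaptic scaffold, the longest was 183.2 kb. At the other end, outside Skint5, the longest stretches called in all 8 lists were 16.8 kb in Csmd1 (chr8:16879827-16896605), 16.7 kb in Dpp10 and 16.2 kb in Naaladl2.

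Along the gene, from 5′ to 3′ in the 167 genes with a known strand, the mean covered share was higher in the 10 equal bins nearer the 5′ end than in the 10 nearer the 3′ end in all 8 lists, with 3.79% and 3.51% in E13.5 het and 10.0% and 9.11% in P3 KO. More in the 5′ bins was found in 83 of the 167 genes in E13.5 het and in 88 to 95 in the other lists. The genes were thus split almost evenly. Single bins of the 20 ranged from 2.83% to 4.53% in E13.5 het and from 6.44% to 10.4% in P3 het. The first bin had 3.67% in E13.5 het, against 3.60% for the 10 bins in the middle. In E16.5 het it had 6.61% against 7.97%, in P0 KO 8.22% against 9.65%, and in P3 KO 7.87% against 9.64%. The first bin was thus below the middle at E16.5, P0 and P3 in both genotypes and above it at E13.5.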
